A study of Mus musculus with 3 samples.

Results

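The TH2A list held 210 of the 1389 ChIP-Seq peaks deposited for the histone variants of mouse sperm, and the other 1179 were TH2B peaks. Every row of the TH2A list was taken, with no filter. Native ChIP was done on mature caudal sperm of BALB/c-129-E mice aged 8 to 12 weeks with a rabbit antibody against TH2A, and mononucleosomal DNA of the same kind of sperm, not immunoprecipitated, served as Input. ChIP reactions were pooled into 1 TH2A library, sequenced as 150-bp paired ends. The authors called peaks with MACS2 against Input and deposited positions only, in GRCm38 (mm10), with both ends included. With 1 library and no score there was no replicate, no test and no p-value, and the depth behind any peak is unknown. The TH2B list, also from 1 library against the same Input, is given only as a background.

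TH2A and TH2B are testis-specific variants of the core histones H2A and H2B. During spermiogenesis most histones are replaced by transition proteins and then by protamines, and a small share of the sperm genome stays in nucleosomes, among which nucleosomes with these variants are found. The mitochondrial chromosome is not packed by histones. Multicopy genes, pseudogenes and satellite-like repeats lie in parts of the mouse assembly that are hard to complete, and many such parts border unsequenced gaps.

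The peaks were sorted by position into 4 classes. A dense cluster was a run of at least 5 TH2A peaks on a nuclear chromosome with neighbours less than 200 kb apart. Of the 210 peaks, 124 (59.0%, 95% Wilson interval 52.3 to 65.5%) lay in 8 dense clusters, 59 (28.1%, 22.5 to 34.5%) were scattered over the nuclear chromosomes, 5 were mitochondrial and 22 were on 7 unplaced sequences. All intervals here are 95% Wilson intervals and cover the counting of peaks only. The 59 scattered peaks formed 39 groups, of which 30 were single peaks with no other TH2A peak within 200 kb. The other groups were 2 pairs, 3 groups of 3 and 4 groups of 4. Median peak width was 255 bp in dense clusters and 249 bp among scattered peaks.

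**Figure D1:**
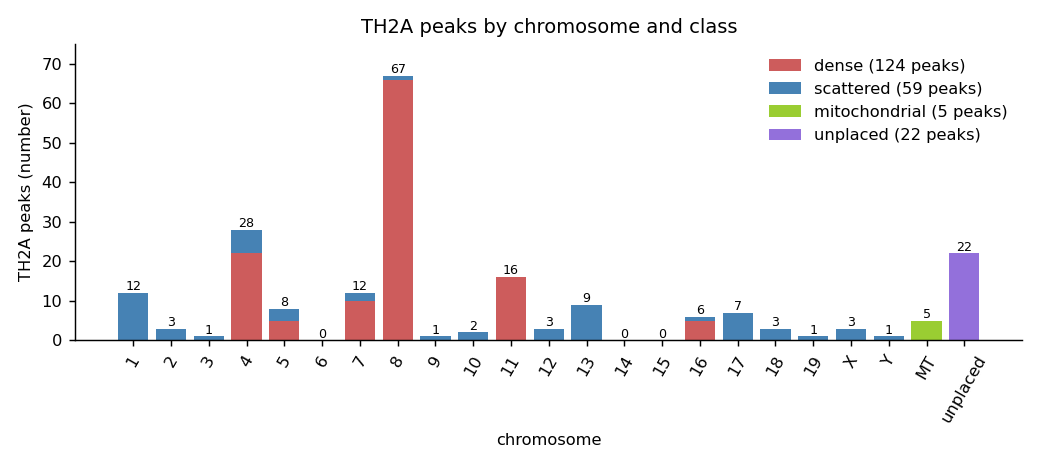
Number of TH2A peaks (vertical axis) on each chromosome (horizontal axis), stacked by class. Chromosome 8 held 67 peaks, 66 of them dense, while chromosome 1 held 12 and chromosome 13 held 9 peaks, all scattered.

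Sequences that show the main kinds of TH2A peaks follow, read from the plus strand of the GRCm38.p6 assembly. This assembly is of another mouse strain than the sperm, so the bases, copies and gaps given here are those of the reference. The first 4 are tandem repeats, in which capitals mark a base equal to the base 1 repeat period before it. The peak at chr17:13589892-13590100, in introns of the lncRNA genes 2700054A10Rik and AC174800.1, had a period of 23 bp, and 182 of its 209 bases were repeated. The peak at chr13:120028377-120028622, upstream of Gm36079, had a period of 339 bp, with 240 of 246 bases repeated. The peak at chr5:137149321-137149570, at the annotated start of the mucin gene Muc3, had a period of 18 bp, with 222 of 250 bases repeated. The first 200 bases of the peak in an intron of Dnah14, chr1:181743070-181743269, had a period of 40 bp, with 199 bases repeated.
2700054A10Rik intron, period 23 bp: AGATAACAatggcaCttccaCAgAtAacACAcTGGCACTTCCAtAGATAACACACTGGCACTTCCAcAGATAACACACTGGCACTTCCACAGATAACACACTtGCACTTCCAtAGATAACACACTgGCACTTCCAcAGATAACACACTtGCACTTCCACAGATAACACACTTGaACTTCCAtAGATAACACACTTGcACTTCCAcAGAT
Gm36079 upstream, period 339 bp: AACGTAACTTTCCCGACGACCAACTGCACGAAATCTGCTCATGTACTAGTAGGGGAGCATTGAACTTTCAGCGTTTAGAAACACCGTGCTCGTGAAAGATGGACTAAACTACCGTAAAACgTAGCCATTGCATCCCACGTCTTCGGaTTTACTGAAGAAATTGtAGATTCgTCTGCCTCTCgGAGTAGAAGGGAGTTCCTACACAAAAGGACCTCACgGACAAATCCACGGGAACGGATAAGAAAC
Muc3, period 18 bp: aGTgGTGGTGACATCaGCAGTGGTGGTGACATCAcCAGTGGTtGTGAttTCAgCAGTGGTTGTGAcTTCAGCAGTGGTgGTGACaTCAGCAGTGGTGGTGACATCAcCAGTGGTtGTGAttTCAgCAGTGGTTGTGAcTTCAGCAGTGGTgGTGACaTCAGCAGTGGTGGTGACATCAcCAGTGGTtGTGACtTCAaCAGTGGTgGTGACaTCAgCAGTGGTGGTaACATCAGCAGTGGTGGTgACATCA
Dnah14 intron, period 40 bp: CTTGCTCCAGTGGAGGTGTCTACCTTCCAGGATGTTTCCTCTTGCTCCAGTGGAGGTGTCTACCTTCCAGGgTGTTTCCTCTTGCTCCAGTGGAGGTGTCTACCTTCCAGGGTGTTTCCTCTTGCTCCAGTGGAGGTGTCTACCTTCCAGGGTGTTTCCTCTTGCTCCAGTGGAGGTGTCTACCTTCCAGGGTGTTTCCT

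The next 2 sequences show peaks with near-identical copies. The first is the peak at chr8:19730766-19730967 in an intron of 4930467E23Rik, whose 202 bases recur without a difference inside the peak at chr8:20616063-20616345 in Gm21119. Capitals mark the 170 bases that also recur without a difference in the peak at chr8:20036086-20036293 in the pseudogene Gm20778. The second is the peak at JH584304.1:13066-13265 on an unplaced sequence, matched on chromosome 11 in Sfi1, chr11:3171522-3171710, at 99.5% identity. Capitals mark the 12 bases of its 200 that lie outside the match or differ from it.
4930467E23Rik intron, shared by 3 peaks: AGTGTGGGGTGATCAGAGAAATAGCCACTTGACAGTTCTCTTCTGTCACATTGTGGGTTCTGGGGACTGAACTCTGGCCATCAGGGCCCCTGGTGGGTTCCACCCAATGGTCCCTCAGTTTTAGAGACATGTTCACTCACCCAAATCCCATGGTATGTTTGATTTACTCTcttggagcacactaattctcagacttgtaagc
unplaced peak with its match in Sfi1: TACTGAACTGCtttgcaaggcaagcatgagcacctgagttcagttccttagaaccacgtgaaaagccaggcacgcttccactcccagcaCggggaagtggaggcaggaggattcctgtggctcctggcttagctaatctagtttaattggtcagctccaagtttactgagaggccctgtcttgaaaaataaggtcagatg

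The last 4 show peaks on the mitochondrial chromosome and peaks with neither a copy nor a repeat. The mitochondrial peak at MT:15726-16016, outside genes, differed from a nuclear copy on chromosome 12 at the 1 base in capitals out of 291. In the others capitals mark CpG. The peak at MT:11060-11265 in mt-Nd4, which had no nuclear match of at least 90% identity, held 5 CpG (10 capitals in 206 bases), the peak at chr1:26686169-26686443 in 4931408C20Rik held none in 275 bases, and the peak at chr1:171567731-171567930 in Cd244a held 4 capitals in 200 bases.
mitochondrial, outside genes: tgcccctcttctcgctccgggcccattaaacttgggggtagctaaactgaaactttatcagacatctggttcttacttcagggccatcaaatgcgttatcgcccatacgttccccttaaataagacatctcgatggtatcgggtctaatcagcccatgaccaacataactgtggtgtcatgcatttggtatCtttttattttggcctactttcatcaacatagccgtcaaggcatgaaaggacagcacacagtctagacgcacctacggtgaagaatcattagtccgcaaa
mt-Nd4: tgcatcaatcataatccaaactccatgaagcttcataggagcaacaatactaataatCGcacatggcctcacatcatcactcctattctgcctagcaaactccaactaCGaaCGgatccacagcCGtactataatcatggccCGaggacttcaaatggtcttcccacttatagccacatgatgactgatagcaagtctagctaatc
4931408C20Rik intron: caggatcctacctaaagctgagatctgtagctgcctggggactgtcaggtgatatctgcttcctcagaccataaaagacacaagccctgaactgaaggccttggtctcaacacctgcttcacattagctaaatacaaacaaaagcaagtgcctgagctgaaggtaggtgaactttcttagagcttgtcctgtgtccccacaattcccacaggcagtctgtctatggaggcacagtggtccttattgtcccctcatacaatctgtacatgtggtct
Cd244a intron: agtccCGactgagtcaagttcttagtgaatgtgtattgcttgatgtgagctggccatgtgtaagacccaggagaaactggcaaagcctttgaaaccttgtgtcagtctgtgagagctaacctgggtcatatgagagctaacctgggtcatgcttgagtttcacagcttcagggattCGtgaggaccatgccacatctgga

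Which genes lie at TH2A peaks was asked first. In GENCODE M21, 66 of 55536 annotated genes (0.119%) and 31 of 22028 protein-coding genes (0.141%) overlapped a TH2A peak by at least 1 bp. For TH2B these shares were 1.54% and 2.89%. Counting genes within 5 kb of a TH2A peak gave 162 genes (0.292%), of which 48 were protein coding (0.218%), against 2.59% and 4.23% for TH2B. Counting the gene of the nearest start site gave 114 genes (0.205%), of which 41 were protein coding (0.186%), against 1.75% and 2.87%. Of the 66 genes, 31 were protein coding (47.0%, against 39.7% of the annotation), 17 were pseudogenes (25.8%, against 24.4%), 17 were lncRNA genes (25.8%, against 18.3%) and 1 was a small RNA gene. A provisional symbol (a Gm number, a Rik clone or another clone name) was carried by 43 of them (65.2%, against 56.0% of annotated genes and 28.3% of the genes overlapped by TH2B peaks). Single peaks marked 47 of the genes. The genes with most peaks were the lncRNA genes Gm26804 with 18, Snhg14 with 10, and C230088H06Rik and Gm26624, which overlap each other, with the same 6, and the protein-coding genes Sfi1 with 10 and Drg1 with 6. All 6 Drg1 peaks lay in introns, and for none was the Drg1 start site the nearest. The RefSeq annotation placed these 6 peaks in Sfi1 and none of them in Drg1, so their assignment to Drg1 depends on the annotation. Sfi1 encodes a centrin-binding protein of the centrosome, and Drg1 a GTP-binding protein.

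The overlapped protein-coding genes were few enough to be accounted for in full, and 13 of the 31 had provisional symbols. On the mitochondrial chromosome they were mt-Co1, mt-Nd4, mt-Nd5 and mt-Cytb, which encode subunits of complexes IV, I, I and III of the respiratory chain. Dense clusters gave 10, namely Sfi1, Drg1, the zinc finger genes Zfp600 and Zfp985, Speer4c and Gm21190 of the Speer region, and 4930467E23Rik, Gm31371, Gm15319 and Gm21119 on chromosome 8. AC133103.1 was on an unplaced sequence. Scattered peaks gave the other 16. These were 4931408C20Rik, C130026I21Rik, Mroh2a, Cd244a and Dnah14 on chromosome 1, E030030I06Rik on chromosome 10, Gm36079 and Gm21188 on chromosome 13, Kctd16 on chromosome 18, Fbxw4 on chromosome 19, Zfp990 and Gm13212 on chromosome 4, Muc3 on chromosome 5, Cldn34d and Apool on X, and Gm47283 on Y. In 16 of the 31 genes a peak reached an exon. In 9 genes a peak overlapped a TH2B peak. Every peak had a near-identical copy in 17 of the genes, and no peak had one in 13.

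Of all TH2A peaks, 49 (23.3%, 18.1 to 29.5%) overlapped a protein-coding gene and 102 (48.6%, 41.9 to 55.3%) no gene. Of the rest, 19 overlapped a pseudogene, 39 a lncRNA gene but no pseudogene, and 1 a small RNA gene. On the nuclear chromosomes the share in protein-coding genes was 24.0% (18.4 to 30.7%), while such genes cover 39.2% of the sequenced nuclear bases. The share in lncRNA genes with no protein-coding gene or pseudogene was 21.3% (16.0 to 27.8%), and lncRNA genes cover 7.18% of these bases. Pseudogenes held 9.84% (6.31 to 15.0%) and cover 1.13%. A peak was counted on an overlap of 1 bp, so the shares of peaks and of single bases differ in kind, most for short genes, and these pairs of values are not like for like. For nuclear TH2B peaks the share in protein-coding genes was 54.7% (51.8 to 57.6%). Scattered TH2A peaks were in protein-coding genes in 19 of 59 cases (32.2%, 21.7 to 44.9%) and dense ones in 25 of 124 (20.2%, 14.0 to 28.1%). Exons of protein-coding genes held 12 of 183 nuclear TH2A peaks (6.56%, 3.79 to 11.1%), against 39.0% of nuclear TH2B peaks. Such exons cover 3.63% of the sequenced nuclear bases, a share that is again not like for like.

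**Figure D2:**
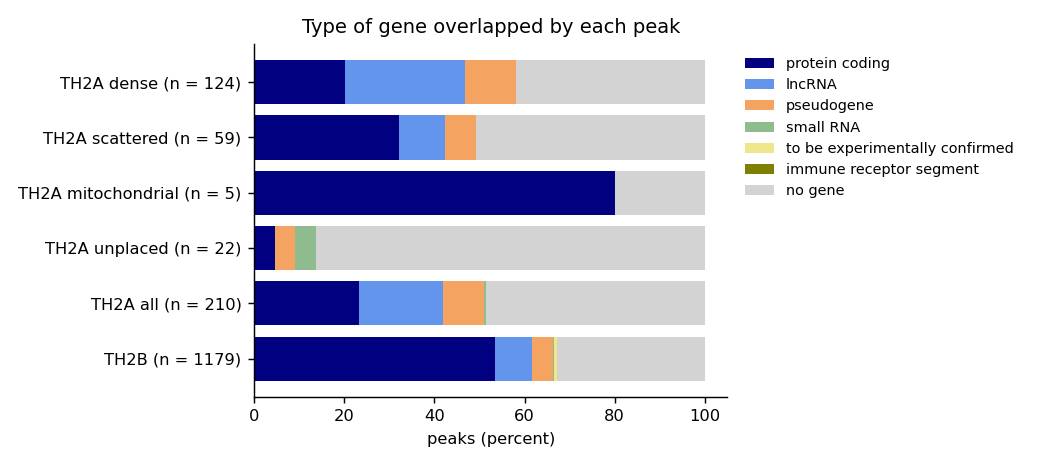
Share of peaks (horizontal axis, percent) by the type of gene overlapped, for each TH2A class, all TH2A peaks and the TH2B list. A peak in genes of several types was counted once, in the order protein coding, pseudogene, lncRNA, small RNA and others. No gene was overlapped by 48.6% of TH2A peaks, and 23.3% overlapped a protein-coding gene.

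By the nearest transcription start site (TSS), pseudogenes took a larger part. A pseudogene start was nearest to 90 of the 183 nuclear TH2A peaks (49.2%, 42.0 to 56.4%), and a protein-coding one to 56 (30.6%, 24.4 to 37.6%). In dense clusters the pseudogene count was 71 of 124 (57.3%, 48.5 to 65.6%) and among scattered peaks 19 of 59 (32.2%, 21.7 to 44.9%). For nuclear TH2B peaks it was 18.2% (16.0 to 20.5%). The chromosome 8 cluster held 66 of the 124 dense peaks, and for most of these 66 a pseudogene start was nearest. The nuclear and dense counts thus rest largely on 1 locus. Pseudogenes make up 24.4% of annotated genes. Within 5 kb of a TSS lay 69 of the 124 dense peaks (55.6%, 46.9 to 64.1%), 29 of the 59 scattered peaks (49.2%, 36.8 to 61.6%), all 5 mitochondrial peaks and 4 of the 22 unplaced ones. Such windows hold 23.2% of sequenced nuclear bases, and 68.7% of nuclear TH2B peaks. Only 41 of the 210 TH2A peaks were within 5 kb of the TSS of a protein-coding transcript.

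Gene families were looked up by symbol. On the mitochondrial chromosome 4 of 37 genes (10.8%) were overlapped. Of 107 nuclear genes of oxidative phosphorylation none was overlapped or within 5 kb of a TH2A peak. Of 452 zinc finger genes 3 (0.664%) were overlapped, namely Zfp600, Zfp985 and Zfp990, and Zfp982 and Zfp988 were within 5 kb. TH2B peaks overlapped 16 of these genes (3.54%). Of 65 genes of multicopy spermatogenic families 2 (3.08%) were overlapped, Speer4c and its antisense lncRNA gene Speer4cos, and TH2B peaks overlapped 1 (1.54%). Counting did not use strand, so the peak shared by such a pair belongs to neither in particular. Of 13 mucin genes Muc3 was the 1 overlapped, in both lists. The TH2A peak, chr5:137149321-137149570, met only the edge of this minus-strand gene, which starts at position 137149322. Its centre was 123.5 bp upstream of the TSS. None of 1990 olfactory and vomeronasal receptor genes and pseudogenes was overlapped, although Vmn2r49 and Vmn2r-ps20 were within 5 kb. No TH2A peak overlapped or lay within 5 kb of any of 43 Hox genes, 91 histone genes, 82 defensin genes, 22 UDP glucuronosyltransferase genes or the 5 genes for protamines and transition proteins. TH2B peaks overlapped 4, 3, 0, 9 and 0 of these, in the same order. The shares were 9.30% for Hox, 3.30% for histone and 40.9% for UDP glucuronosyltransferase genes. TH2B peaks overlapped 1.54% of all genes and 2.89% of protein-coding genes. Most genes of these lists are protein coding, and the histone and zinc finger shares were near the 2.89%. No UDP glucuronosyltransferase gene held the start site nearest to a TH2B peak, so these 9 need not be separate sites. Of all genes 0.119% were overlapped by TH2A peaks and 0.292% were within 5 kb of one. Outside the mitochondrial chromosome the lists had 3 or fewer overlapped genes each. At these shares a list of 107 genes or fewer would seldom hold any gene, so its count of 0 is near the background.

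Scattered peaks with no near-identical copy and no tandem repeat, by the rules given below, were looked at first among the 59. Of these peaks 17 had no near-identical copy, no tandem repeat and no assembly gap within 100 kb, and 5 of the 17 overlapped a TH2B peak. On chromosome 1, 3 of them lay together at 4931408C20Rik, a protein-coding gene known by a clone name. Their centres were 1154 bp downstream, 52.5 bp upstream and 656.5 bp upstream of its TSS, over a stretch of chr1:26686169-26688263, and the first 2 overlapped TH2B peaks. At Cd244a, which encodes a receptor of natural killer cells, 3 peaks lay 9777 bp upstream, 588 bp upstream and 8636.5 bp downstream of its TSS. The first of them overlapped a TH2B peak and was closer, at 7724 bp, to the start of the pseudogene Gm37450. Both genes thus had a TH2A peak within 1 kb of the start and further ones on either side. Mroh2a held 1 peak in an exon, chr1:88242689-88242964, which overlapped a TH2B peak.

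The other 10 of the 17 peaks were spread over 8 chromosomes. A pair lay in the immunoglobulin heavy chain locus on chromosome 12, at chr12:115603098-115603425 and chr12:115638571-115638841, nearest to the variable segments Ighv1-67 (971.5 bp) and Ighv8-12 (9655 bp), and the second overlapped a TH2B peak. Introns held the peaks of Kctd16, which encodes an auxiliary subunit of GABA-B receptors, Fbxw4, which encodes an F-box protein, E030030I06Rik, Cldn34d, which encodes a claudin, and Platr16 with Gm13230. The best match of the Cldn34d peak, X:76598871-76599182, was X:76598727-76598989 at 92.5%, which overlapped the peak itself. It thus held a local repeat that the tandem rule did not call. The remaining peaks were nearest to pseudogenes, Gm7103 on chromosome 3, Gm16505 on chromosome 13 and Gm21978 on chromosome 4. The peaks at E030030I06Rik and near Gm16505 matched neighbouring stretches of each other's region at 94.1% and 93.5% identity, under the 95% that defined a near-identical copy. The Fbxw4 peak matched a stretch of Kctd16 outside the Kctd16 peak, chr18:40307143-40307319, at 93.2%. The peak near Gm21978 matched chr4:147520518-147520787, inside a dense cluster, at 91.5%. The Platr16 peak matched chromosome 11 at 90.1%. Bases masked as repeats made up 94.5% of the Platr16 peak and 86.6% of the Fbxw4 peak.

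Tandem repeats were found in 14 of the 59 scattered peaks (23.7%, 14.7 to 36.0%) and in 12 of the 124 dense ones (9.68%, 5.62 to 16.2%), where a peak was called repeated when, with 500 bp on both sides, at least 50% of bases equalled the base 1 period away. Among 2638 windows of 250 bp placed every 1 Mb along the genome, 14 (0.531%) met this rule, and in the TH2B list 85 of 1155 peaks did (7.36%, 5.99 to 9.01%). The scattered peaks held 8 kinds of repeat by place and period. A 21-bp period recurred in 3 peaks on chromosome 17 and in the peak at chr7:64080312-64080527. The 23-bp repeat printed above ran through 3 peaks within chr17:13589892-13591513, and the 339-bp repeat through 3 peaks of chromosome 13. Single peaks had periods of 40 bp (Dnah14), 18 bp (Muc3), 30 bp (chr8:72643006-72643231, 3592.5 bp upstream of the Nwd1 TSS) and 8 bp (chr2:3050166-3050414). In dense clusters 11 of the 12 repeated peaks had the 21-bp period, 8 of them on chromosome 4 and 3 on chromosome 16. Of the 14 scattered repeated peaks, 5 overlapped a TH2B peak.

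Near-identical copies, at least 95% identical over at least 80% of the peak, were found elsewhere in the genome for 28 of the 59 scattered peaks (47.5%, 35.3 to 60%), 98 of the 124 dense peaks (79.0%, 71.0 to 85.3%) and 15 of the 16 unplaced peaks whose sequence could be read. For TH2B the share was 26.1% (23.6 to 28.7%). Scattered peaks with copies had 1 to 30 of them, with a median of 7, and for 19 of the 28 all copies were on the chromosome of the peak. The copy counted for Dnah14 overlapped the peak itself, shifted along its 40-bp repeat. Some other scattered peaks in tandem repeats, at the 339-bp repeat and on chromosome 17, had their best copy close by on the same chromosome. The measures of copies and of tandem repeats thus overlap in part. The copy was itself a TH2A peak for 8 of the 59 scattered peaks, Dnah14 with its own repeat included, and for 49 of the 124 dense peaks. Among scattered peaks with up to 50 copies, 11 of 248 copies (4.44%, 2.49 to 7.77%) coincided with a TH2A peak, and among dense peaks 69 of 445 (15.5%, 12.4 to 19.2%).

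**Figure D3:**
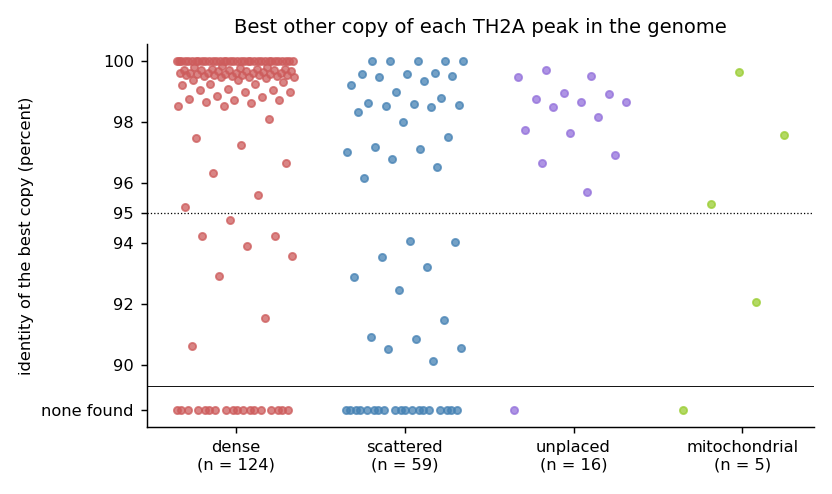
Identity in percent (vertical axis) of the best other match of each TH2A peak, over at least 80% of its length, by class. Each point is a peak, the dotted line marks 95%, and points at the bottom had no match of at least 90%. Of 59 scattered peaks 28 lie above the line, and 98 of 124 dense peaks do.

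Several scattered peaks were linked by sequence to a dense cluster, and 9 of the 59 had a match of at least 90% inside one. The peak in an intron of the pseudogene Pisd-ps2, chr17:3081643-3082130, matched the unplaced sequence JH584304.1 at 99.6%, with a further match in the Sfi1 cluster. The peak in an intron of Apool, which encodes a protein of the mitochondrial cristae complex, matched the same unplaced sequence at 99.4%. The peak in an exon of Zfp990, 140 bp downstream of its TSS, had 9 copies, and the best, at 99.5%, lay in Zfp988. The peaks at chr5:14921645-14921847 and chr5:17468664-17468891, upstream of Gm9758 and Speer4f1, were copies of each other at 100% and had 8 copies each. Peaks with copies within 1 chromosome also lay 2477.5 bp upstream of the vomeronasal receptor gene Vmn2r49, with 7 copies, and downstream of the major urinary protein gene Mup17, with 14 copies. At C130026I21Rik on chromosome 1, 3 peaks in its introns had 1, 13 and 10 copies, with best matches on the unplaced sequence GL456211.1, which itself held 4 TH2A peaks.

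The TH2A peaks among themselves were mostly different sequences. When peaks were joined at 95% identity over 80% of the shorter one, the 204 peaks with sequence made 184 families, of which 169 were single peaks, 10 had 2 members and 5 had 3 members. Of the 15 families with several members 10 were on chromosome 8. The scattered peaks gave a family of 3 on chromosome 13, in the 339-bp repeat, and pairs on chromosomes 1 and 5. In the chromosome 8 cluster every one of the 66 peaks had a copy, from 2 to 1910 of them, and for 61 all copies were on chromosome 8. The 10 peaks in Snhg14, a lncRNA gene that hosts small nucleolar RNAs and runs antisense to Ube3a, had 60 to 127 copies each, all on chromosome 7.

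The dense clusters differed in gene content. On chromosome 4, 9 peaks from 3050368 to 3227885 overlapped no gene, and 5 ran from 146065315 to 146272695, of which 3 were in the lncRNA gene Gm26573 and 1 of these also in Zfp600. A further 8 ran from 147335883 to 147553506, of which 6 were in C230088H06Rik and Gm26624, 1 in Zfp985 and 1 outside genes. On chromosome 5, 5 peaks from 15529096 to 15712007 lay at Gm21190, Gm21847, Gm30613, Speer4c and Speer4cos. On chromosome 8, 35 of the 66 peaks from 19700079 to 20835572 were outside genes, 18 were in Gm26804 and 4 in the pseudogene 2610005L07Rik. On chromosome 16, 5 peaks from 3231593 to 3350476 overlapped no gene. A TH2B peak was overlapped by 7 of the 9 peaks of the first cluster and 4 of the 5 on chromosome 16, against 23 of 66 on chromosome 8, 3 of 16 on chromosome 11 and 2 of 10 in Snhg14.

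On chromosome 11, 15 of the 16 peaks from 3122132 to 3200061 were in Sfi1 or Drg1, 1 of them in both, and 1 was outside genes. Of the Sfi1 peaks 1 reached an exon. In the RefSeq annotation all 15 peaks were in Sfi1 and none was in Drg1. The unplaced sequence JH584304.1 held 11 TH2A peaks, and 10 of them had their match in this cluster, at 95.7 to 99.5% identity. None of the 10 matched positions overlapped a TH2A peak of chromosome 11, and their distance to the nearest one was 10 to 9270 bp. The closest case was the unplaced peak matched at chr11:3162165-3162582, which fell between the TH2A peaks at chr11:3161456-3162137 and chr11:3162593-3162795. The match at chr11:3183748-3184127 ended 118 bp before the widest TH2A peak, chr11:3184246-3185203. Most of the matched positions fell between chr11:3162593-3162795 and chr11:3184246-3185203, a stretch of Sfi1 with no TH2A peak of its own. How the authors treated reads with several possible positions is not given in the sources used here, and its part in this pattern was not tested.

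**Figure D4:**
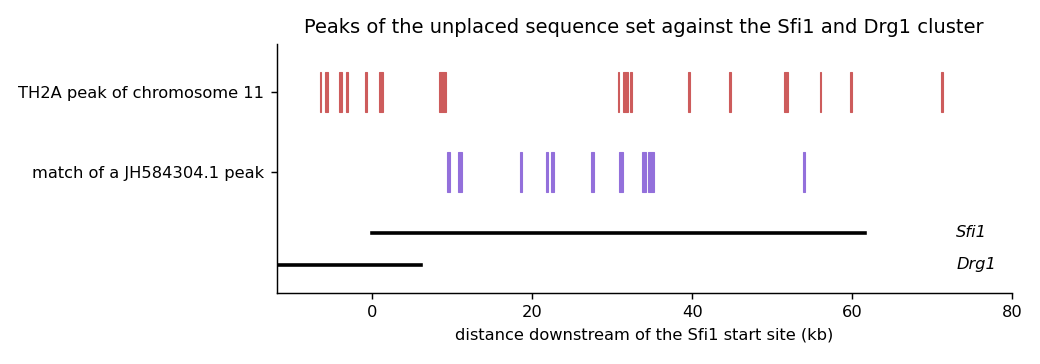
TH2A peaks of chromosome 11 (upper row) and the positions matched by TH2A peaks of the unplaced sequence JH584304.1 (lower row), by distance in kb downstream of the Sfi1 start site, with the GENCODE extent of Sfi1 and Drg1 below. The 10 matched positions coincide with none of the 16 peaks.

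The position of TH2A peaks relative to gaps of the assembly (unsequenced stretches of at least 1000 bp, 244 on the nuclear chromosomes) was then measured. Within 100 kb of a gap lay 95 of the 124 dense peaks (76.6%, 68.4 to 83.2%) and 23 of the 59 scattered peaks (39.0%, 27.6 to 51.7%). Only 1.5% of sequenced nuclear bases are that close to a gap, and 152 of 1140 nuclear TH2B peaks were (13.3%, 11.5 to 15.4%). Within 10 kb lay 8 scattered peaks (13.6%, 7.03 to 24.5%) and 15 dense ones, against 0.163% of bases and 2.81% of TH2B peaks. The median distance was 61888 bp for dense and 304890 bp for scattered peaks. Closest among scattered peaks were the 3 peaks of the 23-bp repeat on chromosome 17 at 99 to 1512 bp, the chromosome 2 peak at 165 bp and the Nwd1 peak at 258 bp. The gap at the start of a mouse chromosome stands for its centromeric end, and 37 of 183 nuclear TH2A peaks, on 7 chromosomes, were within 500 kb of it, against 49 of 1140 TH2B peaks. Peaks of 1 cluster share a gap and are not independent of each other.

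**Figure D5:**
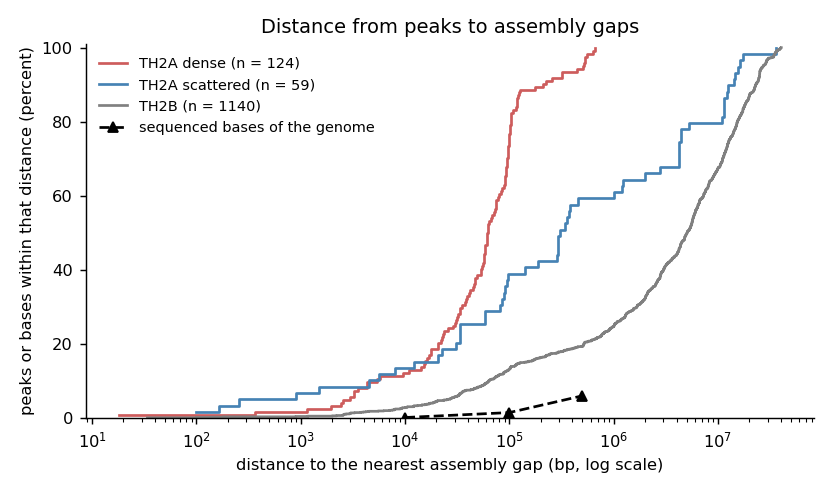
Share of peaks (vertical axis, percent) within a given distance (horizontal axis, bp, log scale) of the nearest assembly gap, for dense and scattered TH2A peaks and nuclear TH2B peaks, with the share of sequenced bases at 10, 100 and 500 kb. At 100 kb the shares are 76.6, 39.0 and 13.3% for the peaks and 1.5% for the bases.

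A near-identical copy, a tandem repeat or a gap within 100 kb was found for 42 of the 59 scattered peaks (71.2%, 58.6 to 81.2%) and for 117 of the 124 dense ones (94.4%, 88.8 to 97.2%). In the nuclear TH2B list 335 of 1140 peaks had at least 1 of these (29.4%, 26.8 to 32.1%). The part of these features in the calling of peaks was not tested. Median GC was 48.4% in dense and 48.8% in scattered peaks, against 41.6% in the evenly spaced windows. The median share of bases masked as repeats was 23.8% and 25.0%, against 23.2% in the windows. The median ratio of observed to expected CpG was 0.122 in dense and 0.143 in scattered peaks. Of the scattered peaks 10 held no CpG and 6 had a ratio of at least 0.6, among them the 3 peaks of the 339-bp repeat and the peak at the Gm36079 TSS.

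TH2B peaks were overlapped by 43 of the 124 dense TH2A peaks (34.7%, 26.9 to 43.4%) and by 19 of the 59 scattered ones (32.2%, 21.7 to 44.9%). Among scattered peaks with a near-identical copy 10 of 28 overlapped a TH2B peak, and among the 17 with no near-identical copy, tandem repeat or nearby gap 5 did. In dense clusters the share ran from 1 of 8 peaks in a cluster of chromosome 4 to 4 of 5 on chromosome 16. Peaks of 1 cluster are not independent, so these intervals cannot decide whether dense and scattered peaks differ. Both lists were called against the same Input, so that an overlap is not independent evidence of either variant.

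The 5 mitochondrial peaks covered 1947 of 16299 bp (11.9%) and none overlapped a TH2B peak, since the TH2B list had none on this chromosome. Their medians of GC and of the CpG ratio were 43.8% and 0.652. Near-identical nuclear copies were found for 3 of them. The mt-Co1 peak, MT:5660-6031, matched chr2:22588944-22589315 at 97.6%, where Gm13340 lies within Myo3a. The mt-Nd5 peak, MT:12370-13170, matched chr13:85126791-85127515 at Gm4076 at 95.3% over 90.5% of its length. The peak outside genes, MT:15726-16016, in the control region next to mt-Tp, matched chr12:97061479-97061769 at 99.7%. The mt-Cytb peak matched chr4:80004364-80004640 at Gm11410 at 92.1%, and the mt-Nd4 peak had no match of at least 90%. None of these nuclear positions held a peak of either list.

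The study designed primers for 4 TH2A regions, and these were placed on the assembly without mismatches. The product for 2610005L07Rik, of 105 bp, lay inside TH2A peaks at chr8:20283102-20283539, in the pseudogene 6820431F20Rik, and at chr8:20410379-20410779, 14 bp from the 2610005L07Rik TSS, and its primers also matched 2 other places, 105 and 113 bp long, that held no TH2A peak. The mt-Co1 product (118 bp) was found at 1 place, inside its mitochondrial peak, and the mt-Tp product (100 bp) inside the mitochondrial peak outside genes and also on chromosome 12. The product for Tcte2 (70 bp) was found at 1 place, chr17:13591258-13591327, inside the third peak of the 23-bp repeat, in introns of 2700054A10Rik and AC174800.1. The centre of that peak was 168735 bp from the Tcte2 TSS and its edge 99 bp from a gap. It is shown with the primers in capitals.
Tcte2 primer product: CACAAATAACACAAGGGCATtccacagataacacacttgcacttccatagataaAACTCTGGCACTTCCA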

How the data were processed

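Native ChIP-Seq of TH2A and TH2B and an Input were sequenced, 1 library each (3 libraries). The authors used Trimmomatic on the reads, BWA for alignment to mm10 and SAMtools for filtering, called peaks with MACS2 2.1.3 against Input and annotated them with HOMER. The deposited lists hold positions in bp only (chromosome, start, end and width), with no score.

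Genes came from GENCODE M21 and sequence and masking from GRCm38.p6, read with Python 3.11.15, pysam 0.24.0 and numpy 2.4.6. RefSeq genes were looked up as a second annotation. Wilson intervals came from scipy 1.17.1. Copies were sought with BLAST 2.17.0 (megablast, word size 32, identity of at least 90%). Repeats were sought with periods of 5 to 400 bp, and the identity that called one was lowered from 80% to 50% after values were seen. Unplaced sequences were matched to RefSeq by coinciding exon boundaries, and 4 of the 7, with 6 TH2A peaks, were not matched. Distances to a TSS ran from the peak centre to any annotated transcript. Genes named were the overlapped protein-coding genes, members of the gene lists overlapped by or nearest to a peak, the 4 genes of the study's primers, the genes with most peaks in each dense cluster, and the overlapped or nearest gene of scattered peaks. Others (list members within 5 kb, and genes at copies) were named after their values were seen. The classes, lists and genes were chosen with earlier results of these data known. The functions were tested on simulated data. Alternatives covered cluster, gene, overlap, copy, family and TSS rules.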

Additional observations from a re-analysis of the deposited data

How the results depend on the processing

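With 1 library and no score, replicate error could not be measured, a stricter peak threshold could not be run, and depth limits at single peaks are unknown. No paired analysis was possible because each antibody has 1 library. Of the counts, the 59 peaks outside dense clusters became 34 when 3 peaks made a cluster. The 66 overlapped genes became 162 with peaks within 5 kb, 114 by nearest TSS, 31 with protein-coding genes only and 36 with exons only. The 49 peaks in protein-coding genes became 17 with exons only and 19 among scattered peaks. The 107 peaks within 5 kb of a TSS became 41 with protein-coding transcripts and 49 within 1 kb. The 28 scattered peaks with a copy became 13 at 99% identity. The measures of distance to gaps and of tandem repeats, with their alternatives, were added after seeing the data. There, the 118 nuclear peaks within 100 kb of a gap became 23 within 10 kb, and the 14 scattered repeated peaks became 4 at 80% identity. Under the other alternatives run, these counts and those of peaks overlapping TH2B, peaks with a copy and families stayed within 1.5 times their values.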
